A study of Mus musculus with 26 samples.

Results

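The lysosomal genes described here are 44 genes of the cell's digestive compartment, followed through RNA-seq libraries of 3 sorted myeloid cell types from WT and ACKR2-/- mice. They were taken as a named list, by gene symbol and by the matching Ensembl identifier, and not by their level or change. All 44 were found among the 50104 genes present in each of the 3 deposited count tables. By role they are 9 cysteine proteases, 3 other proteases, 6 glycosidases, 7 lipid hydrolases, lipid hydrolase activators, lipid transporters and progranulin, 8 membrane proteins, 8 genes of the proton pump and 3 transcription factors of the MiT/TFE family.

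ACKR2 is an atypical chemokine receptor that takes up and degrades inflammatory CC chemokines without classical signalling. All mice were female and naive, and were 8 to 10 weeks old unless stated otherwise by the study. WT mice were purchased C57BL/6J animals and ACKR2-/- mice came from separate homozygous colonies, so that genotype and colony cannot be told apart. Bone marrow monocytes and small peritoneal macrophages (SPMs) were sorted from 4 WT and 4 ACKR2-/- samples each, every sample holding cells of 5 mice. MHCII negative lung macrophages were sorted from 5 WT and 5 ACKR2-/- samples, for which the number of mice per sample was not given in the sources used here, and p-values then measure only the spread between these samples. The 26 libraries held between 12781144 and 35400034 counts on genes, and each cell type came from a table of its own, so that cell type and table (sort, sequencing run and counting) cannot be told apart.

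Lysosomes are acidic organelles in which material taken up by phagocytosis and endocytosis, and material delivered by autophagy, is broken down. A vacuolar proton pump (V-ATPase) made of a membrane-embedded V0 sector and a cytosolic V1 sector acidifies the lumen, and proteases, glycosidases and lipases work there at low pH. TFEB, TFE3 and MITF are related transcription factors that bind a palindromic E-box in the promoters of many lysosomal genes. Macrophages depend on this compartment to digest microbes and dying cells, and cathepsin S also trims the invariant chain so that MHCII can be loaded with peptide. The study examined whether ACKR2-/- macrophages break down engulfed bacterial particles differently, which is the question behind the genotype comparisons of these genes.

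The promoter sites of this E-box are shown first. Promoter sequence was not used to choose the genes, but the E-box is already known from many lysosomal promoters. An excess of it among them is therefore not an independent result. RefSeq promoters (GRCm38.p6) were at hand for 37 of the 44 genes, as 49 promoters, and the 250 bases before each start were searched on both strands for CACGTG and for its extended form TCACGTGA, which contains the shorter word. The shorter one was present in 10 of the 49 promoters (20.4%), against 6.02% of all 32851 mouse promoters. Its genes were Atp6v1a, Ctsa, Ctsd, Ctsf, Ctsl, Gaa, Glb1, Lamp1, Lgmn and Mcoln1. TCACGTGA was present in 4 of the 49 (8.16%), against 0.785% of all promoters. A match describes the letters and is not a shown binding site. The 4 windows with TCACGTGA in capitals, and those of Ctsf and Lgmn with CACGTG in capitals because these proteases carry large differences between cell types, read as follows, each with 40 bases on either side where the searched window reached that far.
Atp6v1a at chr16:44139344-44139431 (- strand, capitals 132 bases before the start): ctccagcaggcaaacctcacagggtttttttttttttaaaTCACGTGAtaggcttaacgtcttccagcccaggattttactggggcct
Ctsa at chr2:164833720-164833772 (+ strand, capitals 13 bases before the start): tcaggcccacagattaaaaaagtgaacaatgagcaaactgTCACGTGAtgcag
Ctsd at chr7:142387879-142387966 (- strand, capitals 99 bases before the start): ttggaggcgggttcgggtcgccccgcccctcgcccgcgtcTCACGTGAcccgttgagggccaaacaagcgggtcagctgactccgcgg
Mcoln1 at chr8:3500433-3500518 (+ strand, capitals 46 bases before the start): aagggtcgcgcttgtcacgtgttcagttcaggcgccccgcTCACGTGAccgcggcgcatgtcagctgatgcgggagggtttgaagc
Ctsf at chr19:4855046-4855131 (+ strand, capitals 79 bases before the start): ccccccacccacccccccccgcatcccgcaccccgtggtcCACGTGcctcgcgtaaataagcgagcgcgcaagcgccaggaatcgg
Lgmn at chr12:102439096-102439181 (- strand, capitals 49 bases before the start): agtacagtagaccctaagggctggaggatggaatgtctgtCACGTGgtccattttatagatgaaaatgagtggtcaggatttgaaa
Atp6v1a encodes the catalytic subunit of the V1 sector, Ctsa a serine carboxypeptidase that also protects neuraminidase, Ctsd the main lysosomal aspartic protease, and Mcoln1 a lysosomal calcium channel. Ctsf and Lgmn encode cysteine proteases, and legumain (Lgmn) cuts after asparagine.

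Levels are given as CPM, the counts of a gene relative to the total of its library after TMM scaling over all 26 libraries, and comparisons between different genes are made on CPM per kilobase of exon. Lysosomal genes were among the highly transcribed genes of all 3 cell types. Per kilobase, between 22 and 29 of the 44 stood in the top 10% of 17792 genes in each group, and their median percentile lay between 90.1 and 92.8. Together they took 1.37 to 2.08% of counts in monocytes, 1.22 to 2.50% in SPMs and 2.26 to 3.43% in lung macrophages. Below the median level of the 17792 genes stood 4 of the 44 in both monocyte groups (Ctsk, Atp6v0d2, Ctsf and Mitf) and 2 in each macrophage group (Ctsk and Atp6v0d2 in SPMs, Mitf and Npc1 in the lung). Ctsk and Atp6v0d2 did not pass the filter on low counts in monocytes and SPMs, so that 42 of the 44 genes were tested for a genotype difference there and all 44 in lung macrophages.

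**Figure D1:**
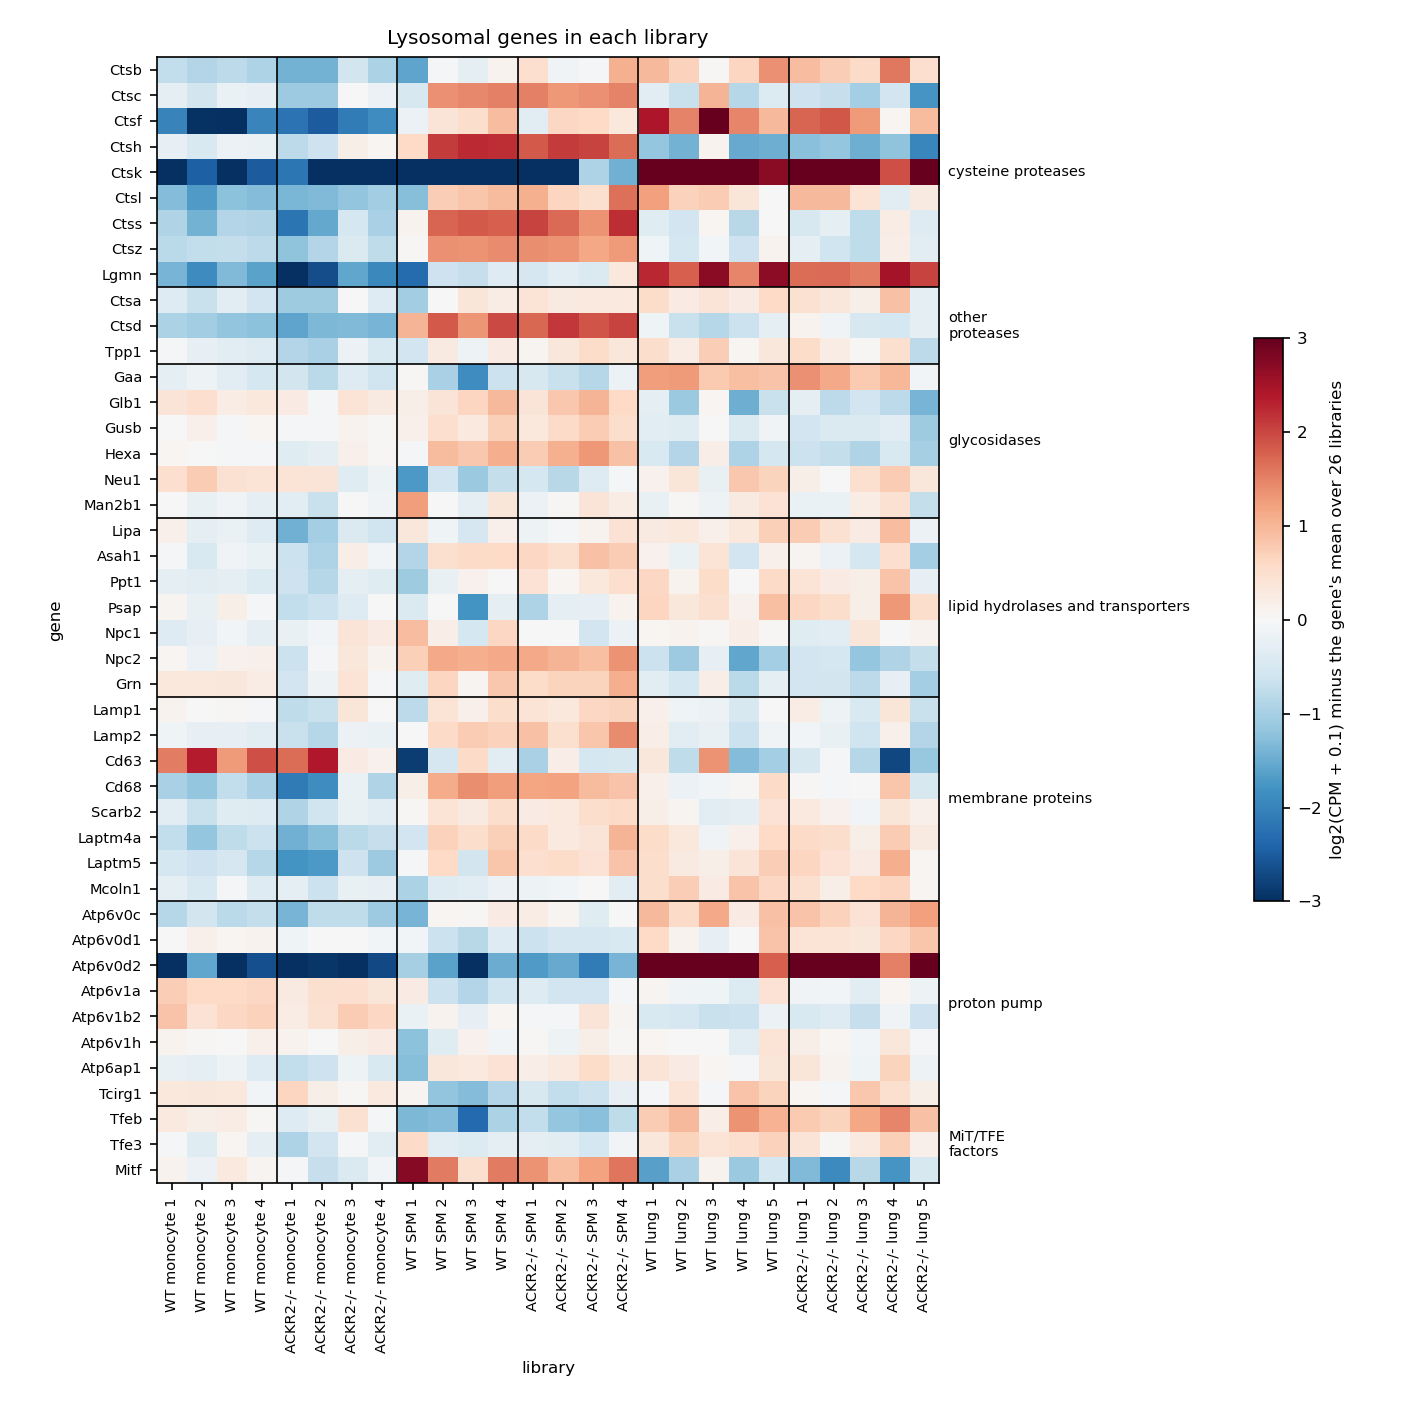
Levels of the 44 lysosomal genes (rows, by role) in the 26 libraries (columns, by cell type and genotype), as log2(CPM + pseudocount) minus each gene's mean over all libraries; red is higher and blue lower. Blocks follow cell type and not genotype, and Ctsk and Atp6v0d2 are high in the lung libraries only.

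Several libraries stood apart from their group. In the lung, the targeted gene Ackr2 had 469, 436, 150, 372 and 0 reads in the libraries labelled WT replicates 1 to 5 and 7 to 50 reads in the ACKR2-/- libraries, so that the library labelled WT replicate 5 went against its label. Ackr2 had 5 to 9 reads in WT SPMs and 0 in ACKR2-/- SPMs, and a total of 2 reads in monocytes, where it checks nothing. MHC class II genes summed to 72100 CPM in the library labelled WT lung replicate 3, against 3120 to 7730 CPM in the other lung libraries, although these cells were sorted as MHCII negative. Lung WT replicate 5 and ACKR2-/- replicate 4 held the least epithelial RNA, 334 and 209 CPM over 6 markers against 4400 to 15500 CPM in the other lung libraries. SPM WT replicate 1 had the lowest sum of large peritoneal macrophage markers in its group, 344 CPM against 1180 to 1720 CPM, and the highest sum of monocyte markers, 3660 CPM against 1520 to 1980 CPM. Macrophage markers (7 genes, including Csf1r, Adgre1 and Mertk) summed to 16700 to 31500 CPM in SPMs, 1040 to 9930 CPM in lung macrophages and 139 to 321 CPM in monocytes, none of them at 0 in any group.

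In monocytes, no lysosomal gene passed the test between genotypes, and most estimates were lower in ACKR2-/- cells. Of the 42 genes tested, 0 were called (edgeR, Benjamini-Hochberg adjusted p under 0.05 and a log2 fold change over 0.5 in either direction) against 1.27% of all genes. DESeq2 also called 0, against 494 of all 13246 genes. At an unadjusted edgeR p under 0.05 there were 6 of 42 against 17% of all genes. The genotypes did not overlap for 4 of 42 against 10.5% of all genes, so that both shares lay near the background. Estimates were lower in ACKR2-/- monocytes for 36 genes and higher for 6, with a median log2 fold change of -0.16, where the median of all genes was 0. That median depended on single libraries, at -0.05 without ACKR2-/- replicate 2, -0.08 without replicate 1 and -0.27 without replicate 3.

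Lipa, which encodes lysosomal acid lipase, had the smallest p in monocytes. It read 72.2, 53.3, 56.9 and 49.2 CPM in the 4 WT samples and 23.7, 31.9, 48.1 and 42.8 CPM in the 4 ACKR2-/- samples. Every ACKR2-/- sample lay below every WT sample, with a log2 fold change of -0.64 (SE 0.21) and an adjusted p of 0.15 in edgeR. Ctsd read 213, 200, 183 and 176 CPM in WT and 138, 162, 165 and 157 CPM in ACKR2-/- monocytes. These groups did not overlap either, but the difference was small, with a log2 fold change of -0.29 (SE 0.12, adjusted p = 0.233, edgeR). Npc1, the membrane transporter that exports cholesterol from lysosomes, was the gene with the smallest p among those with a higher estimate. It read 13.9, 15.3, 17.1 and 15.1 CPM in WT and 15.5, 17.1, 23.8 and 21.5 CPM in ACKR2-/- monocytes, with overlapping groups, a log2 fold change of 0.36 (SE 0.15) and an adjusted p of 0.245 in edgeR. The other genes at an unadjusted p under 0.05 were Laptm5, a lysosomal membrane protein of blood cells, at -0.58, Lgmn at -0.63 and the neuraminidase Neu1 at -0.41 on the log2 scale.

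The ACKR2-/- monocyte samples were themselves uneven. Lysosomal genes took 1.44 and 1.37% of counts in replicates 1 and 2 and 2.08 and 1.90% in replicates 3 and 4, against 1.60 to 1.98% in WT. Neutrophil markers (7 genes) summed to 40300 and 44900 CPM in replicates 1 and 2 and to 9620 and 15500 CPM in replicates 3 and 4, against 30200 to 71200 CPM in WT, and precursor markers (5 genes, including Mpo and Elane) to 18000, 19500, 7680 and 7870 CPM against 12000 to 23700 CPM. No marker of either list was at 0 in a monocyte group. Cd63, a membrane protein of lysosomes and of granules, read 511, 906, 424 and 678 CPM in WT and 558, 928, 210 and 191 CPM in ACKR2-/- monocytes, low in the same 2 libraries as these markers. Without ACKR2-/- replicate 3 the number of called genes went from 0 to 1 of 42. Over all genes it went from 168 of 13246 to 413 of 13525. The 1 gene was Laptm5, at a log2 fold change of -0.84 (SE 0.20, adjusted p = 0.0471, edgeR). Laptm5 read 983, 921, 1000 and 788 CPM in WT and 410, 432, 932 and 664 CPM in ACKR2-/- monocytes, and the library left out lay within the WT range. The part of these other cells in the values was not tested, and in sorted bulk samples fewer cells of a type and less RNA per cell cannot be told apart.

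In SPMs, no lysosomal gene passed the test between genotypes either, and the estimates leaned the other way. Of 42 genes tested, 0 were called by edgeR against 0.0462% of all genes, and 0 by DESeq2 against 33 of all 12997 genes. At an unadjusted p under 0.05 there were 0 of 42 against 5.46% of all genes, and the genotypes overlapped for every gene, where 3.36% of all genes did not overlap. Estimates were higher in ACKR2-/- SPMs for 32 genes and lower for 10, where 44.3% of all genes had higher estimates. The median was 0.13 on the log2 scale, against -0.05 for all genes. It became 0.23 without WT replicate 2 or WT replicate 4, and 0.09 without WT replicate 1 (all genes 0.01).

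Ppt1, which removes fatty acids from proteins during their breakdown, read 86.2, 154, 198 and 181 CPM in WT and 242, 186, 226 and 254 CPM in ACKR2-/- SPMs. Its log2 fold change was 0.50 (SE 0.24, adjusted p = 0.788, edgeR), with overlapping groups. Npc1 read 34.8, 20.9, 12.6 and 28 CPM in WT and 17.9, 18.4, 12.1 and 16.1 CPM in ACKR2-/- SPMs, a log2 fold change of -0.67 (SE 0.32), opposite in sign to its estimate in monocytes. Cathepsin B (Ctsb), an abundant cysteine protease, read 802, 2340, 1980 and 2590 CPM in WT and 3380, 2240, 2300 and 5030 CPM in ACKR2-/- SPMs. The lowest value was WT replicate 1 and the highest ACKR2-/- replicate 4, and the log2 fold change was 0.71 (SE 0.36). Without WT replicate 1 the estimates were 0.33 for Ppt1, -0.38 for Npc1 and 0.47 for Ctsb, all smaller, and still 0 genes were called. The markers of small peritoneal macrophages (5 genes, led by Retnla) summed to 114000 to 142000 CPM in WT and 36500 to 106000 CPM in ACKR2-/- SPMs. Those of large peritoneal macrophages (5 genes) summed to 344 to 1720 CPM in WT and 1510 to 2910 CPM in ACKR2-/- SPMs, highest in ACKR2-/- replicates 1 and 4, which also read highest for Ctsb. Dendritic cell markers (5 genes) summed to 941 and 366 CPM in these 2 libraries, against 1640 and 1950 CPM in the other ACKR2-/- SPMs and 243 to 2170 CPM in WT. No marker of these 3 lists was at 0 in an SPM group, and their part in these values was not tested.

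In MHCII negative lung macrophages the genotypes overlapped for every lysosomal gene. Of 44 genes tested, 0 were called by edgeR against 0% of all genes, and 0 by DESeq2 against 20 of all 16824 genes. At an unadjusted p under 0.05 there was 1 of 44 against 2.97% of all genes, and 0.481% of all genes did not overlap between genotypes. Estimates were higher for 16 genes and lower for 28, where 44.8% of all genes had higher estimates. The median was -0.09 on the log2 scale, against -0.04 for all genes, and ranged from -0.13 to -0.01 with 1 library left out. Without the library labelled WT replicate 3 or WT replicate 5 it was -0.02 and -0.01, and without both of these 0.06.

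Cathepsin C (Ctsc), which activates the serine proteases of granules, read 677, 534, 1720, 471 and 639 CPM in the libraries labelled WT and 554, 529, 419, 572 and 248 CPM in ACKR2-/- libraries. Its log2 fold change was -0.84 (SE 0.37, adjusted p = 1, edgeR), and the high value was that of WT replicate 3. Gusb, the beta-glucuronidase, read 121, 118, 151, 113 and 140 CPM and 101, 112, 113, 121 and 71.8 CPM, a log2 fold change of -0.32 (SE 0.16). Ctsf read 24.6, 12.8, 51.4, 12.6 and 8.97 CPM and 15.3, 16.8, 11.1, 4.72 and 8.77 CPM, a log2 fold change of -0.98 (SE 0.50), again with WT replicate 3 as the highest library. Without the libraries labelled WT replicates 3 and 5 the estimates were -0.24 for Ctsc, -0.15 for Gusb and -0.51 for Ctsf, and 0 genes were called.

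**Figure D2:**
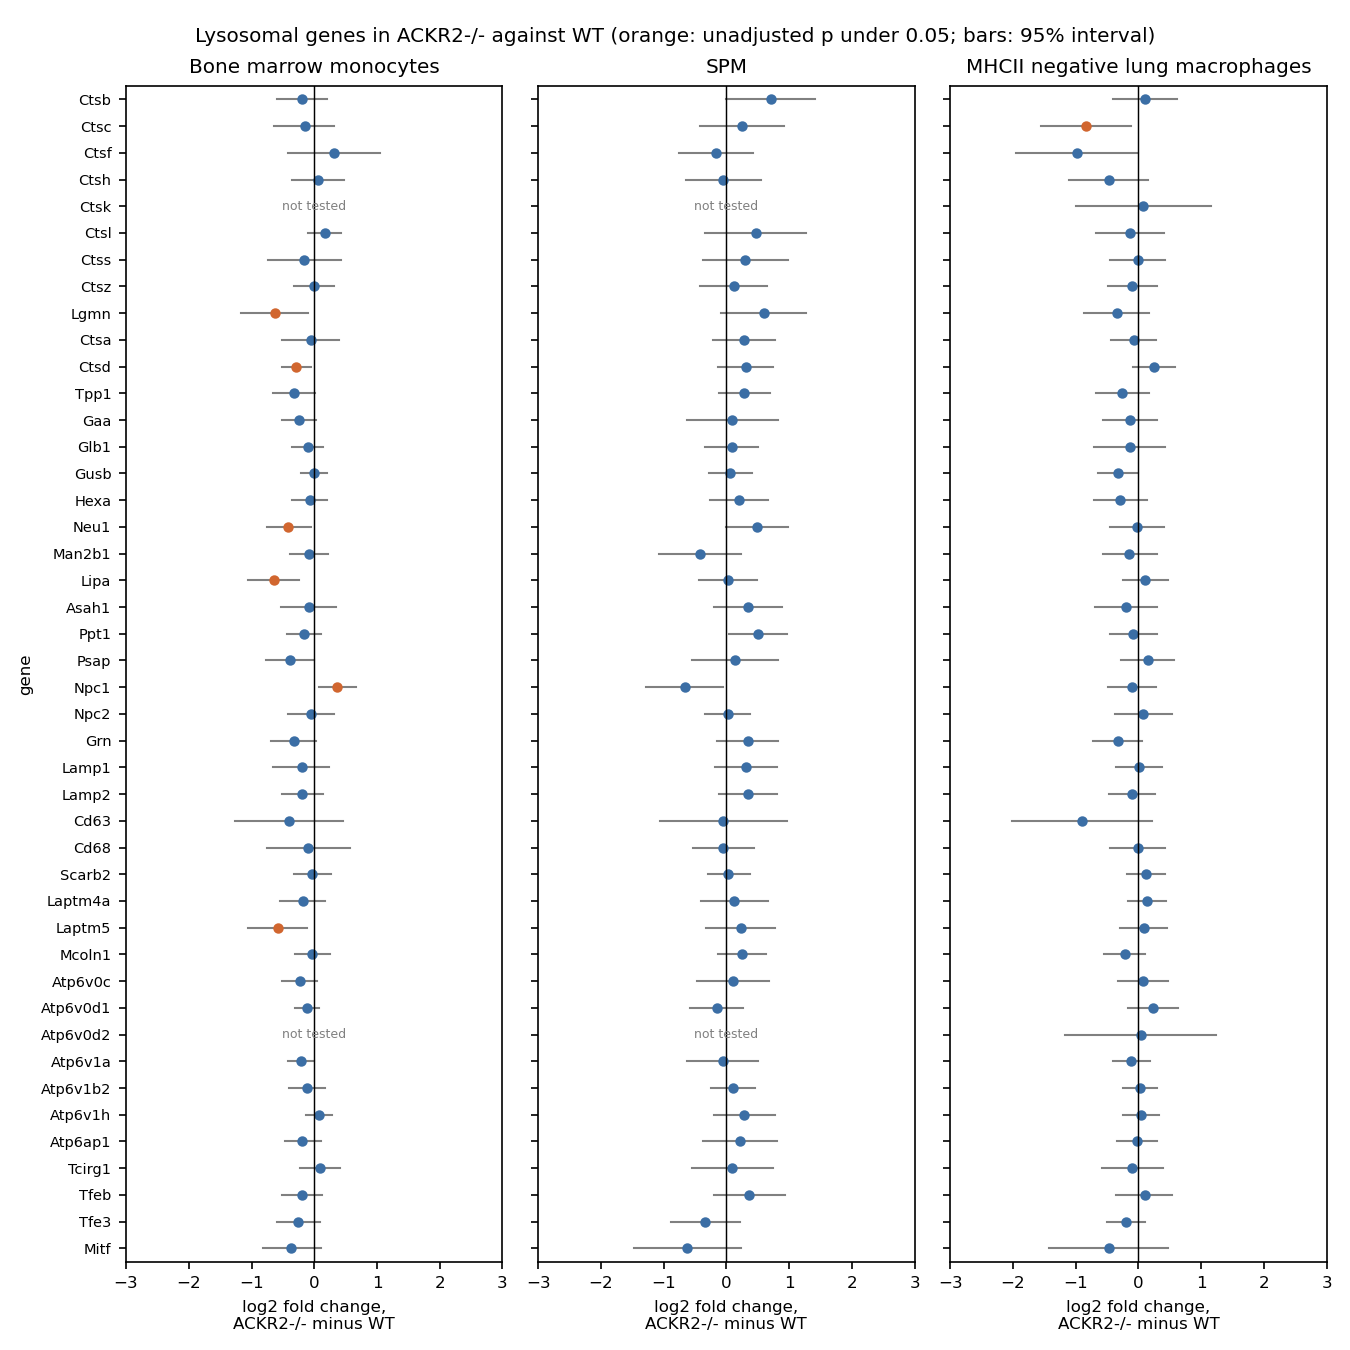
Log2 fold change of each lysosomal gene, ACKR2-/- against WT, in monocytes, SPMs and MHCII negative lung macrophages, with bars for the 95% interval (1.96 SE) and orange for an unadjusted p under 0.05. No gene was called in any of the 3 panels, and the cloud of points lies left of 0 in monocytes (36 of 42) and right of 0 in SPMs (32 of 42).

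The difference between the genotype effects of 2 cell types was tested directly in 1 fit of all 26 libraries. Between SPMs and monocytes 0 of 44 genes were called against 0.253% of all genes (edgeR; 0 by DESeq2), with the smallest adjusted p at 0.44. At an unadjusted p under 0.05 there were 8 of 44 against 7.46% of all genes. These 8 were Lgmn, Ctsd, Neu1, Lipa, Ppt1, Grn, which encodes progranulin, and Laptm5, with a more positive effect in SPMs, and Npc1, with a more negative one. The largest of them was Lgmn, at a difference of 1.28 (SE 0.50) on the log2 scale. Between lung macrophages and monocytes 0 of 44 were called against 0.152% of all genes, with 1 of 44 against 6.07% at an unadjusted p under 0.05. Between lung macrophages and SPMs 0 of 44 were called against 0.0393%, with 2 of 44 against 6.15% at an unadjusted p under 0.05. DESeq2 called 0 of 44 in each comparison, against 138, 109 and 23 of all 17792 genes in the order given.

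Between the cell types many lysosomal genes differed, as did many genes of all kinds. In WT cells 16 of 44 genes were higher and 7 lower in SPMs than in monocytes (21.8% and 20.1% of all genes), and in ACKR2-/- cells 27 were higher and 4 lower (20.8% and 19.5%). Lung macrophages against monocytes gave 19 higher and 6 lower in WT (39.5% and 24.4% of all genes) and 24 higher and 10 lower in ACKR2-/- (37.6% and 24.3%). Lung macrophages against SPMs gave 15 higher and 13 lower in WT (39.1% and 23.2%) and 13 higher and 16 lower in ACKR2-/- (38.9% and 24.7%). WT lung macrophages stand here for the 5 libraries labelled so. Without replicates 3 and 5 of these, the WT counts were 17 higher and 9 lower against monocytes and 14 higher and 13 lower against SPMs. Ctsk and Atp6v0d2 passed the filter of this fit through their lung counts alone. Their calls as higher in the lung follow largely from that filter, and they are included in the lung counts here and below. In the contrasts of WT lung macrophages the shares of lysosomal genes called lay near those of all genes, or below them for genes lower than in monocytes (13.6%), so that these counts are not a result about the lysosomal genes as a set. The WT and ACKR2-/- contrasts share no library, but both genotypes of a cell type come from the same table, whose effects would recur in both. The share of all genes called alike in both genotypes was not computed, so that the following numbers are not a result about the lysosomal genes. For SPMs against monocytes 19 genes were called in the same direction in both genotypes, out of 23 called in WT and 31 in ACKR2-/-. The corresponding numbers were 25 out of 25 and 34 for lung macrophages against monocytes, and 26 out of 28 and 29 for lung macrophages against SPMs, with 0 genes called in opposite directions in any of the 3.

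The direction of many of these differences depended on the scaling. The 10 most abundant genes took 37.1 to 40.5% of counts in WT SPMs, against 13.3 to 18.4% in monocytes and 8.71 to 15.7% in lung macrophages. When counts were scaled to the library total with no further factor, the median of all genes for WT SPMs against WT monocytes moved from 0 to -0.96 on the log2 scale, and the WT counts became 6 higher and 24 lower. For WT lung macrophages against WT SPMs the median of all genes moved from 0.41 to 1.62, and the counts became 34 higher and 4 lower. Higher genes were 69.6% of called lysosomal genes for WT SPMs against WT monocytes under TMM and 20% under total counts (all called genes, 52.1% and 16.2%), and 53.6% and 89.5% for WT lung macrophages against WT SPMs (all called genes, 62.8% and 87.5%). Relative to the median of all genes, the median of the lysosomal genes was 0.20 to 0.51 higher in WT SPMs than in WT monocytes under 4 scalings (TMM, RLE, upper quartile and total counts), 0.14 to 0.16 higher in WT lung macrophages than in WT monocytes, and 0.16 to 0.30 lower in WT lung macrophages than in WT SPMs. In ACKR2-/- cells the corresponding values were 0.90 to 1.05 higher, 0.41 to 0.42 higher and 0.53 to 0.55 lower. The genes that follow are therefore separated into those called in 1 direction under all 4 scalings and the rest.

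In WT SPMs against WT monocytes, 6 of 44 genes were called higher under all 4 scalings, against 9.08% of all genes. They were Ctsf, Ctsh, Ctss, Ctsz, Ctsd and Cd68, with 5 of the list's 10 cathepsins among them. The 5 of 44 called lower under all 4, against 15.4% of all genes, were Neu1, Cd63, Atp6v1a, Tcirg1 and Tfeb. Another 4 genes, Ctsa, Gusb, Asah1 and Atp6v0c, were called in opposite directions under different scalings, and the sign of the estimate differed for 22 of the 44.

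In WT lung macrophages against WT monocytes the scaling mattered little. Under all 4 scalings 19 of 44 genes were called higher (38.9% of all genes), 5 lower (21.8%) and 0 in opposite directions. The 19 include Ctsk and Atp6v0d2, which passed the filter through the lung alone, as do the 13 called higher against WT SPMs. The higher genes included the proteases Ctsb, Ctsf, Ctsk, Ctsl, Lgmn, Ctsa, Ctsd and Tpp1, the lipase Lipa, and Tfeb and Tfe3, and the lower ones were Glb1, Npc2, Cd63, Atp6v1a and Atp6v1b2. In WT lung macrophages against WT SPMs 13 genes were called higher under all 4 scalings (Ctsb, Ctsf, Ctsk, Lgmn, Gaa, Neu1, Psap, Mcoln1, Atp6v0c, Atp6v0d1, Atp6v0d2, Tcirg1 and Tfeb), 4 lower (Ctsh, Ctsd, Npc2 and Mitf), and 7 in opposite directions. All genes were called higher under all 4 in 33.5% and lower in 9.47%, close to the shares among the 44.

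Among the cysteine proteases, SPMs were high in cathepsins S, H, C and Z and lung macrophages in cathepsins B, K and F and in legumain. Of the 9, 6 were called higher and 0 lower in WT SPMs than in WT monocytes, and 4 higher and 4 lower in WT lung macrophages than in WT SPMs. Ctsk, which passed the filter through the lung alone, is among these 4 higher genes. All genes were called in 21.8% and 20.1% for the first of these contrasts and in 39.1% and 23.2% for the second. Ctss, which encodes cathepsin S, read 1440, 1010, 1470 and 1430 CPM in WT monocytes, 2910, 9040, 9590 and 9290 CPM in WT SPMs and 2080, 1810, 2800, 1510 and 2680 CPM in WT lung macrophages. The ACKR2-/- ranges were 585 to 1870, 6800 to 12500 and 1580 to 3120 CPM in the same order. All SPM libraries but WT replicate 1 lay above all others, and WT SPMs exceeded WT monocytes by a log2 fold change of 2.53 (SE 0.37, adjusted p = 3.54e-06, edgeR).

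Ctsh, an aminopeptidase of the same family, read 722, 618, 750 and 741 CPM in WT monocytes, 1300, 3670, 4030 and 3950 CPM in WT SPMs and 380, 322, 913, 301 and 307 CPM in WT lung macrophages. Its order was SPMs, monocytes, lung macrophages, and WT lung macrophages lay below WT SPMs by a log2 fold change of -2.86 (SE 0.33, adjusted p = 5.97e-08, edgeR), while lung macrophages and monocytes differed by -0.67 (SE 0.32, adjusted p = 0.0683). The highest lung library for Ctsh, Ctsc and Ctsf was WT replicate 3, the library with the high MHC class II sum. MHC class II genes (5 genes, none at 0 in any group) summed to 157000 to 247000 CPM in SPMs and 319 to 504 CPM in monocytes. Their part in these values was not tested. Ctsc read 695, 575, 736 and 712 CPM in WT monocytes and 609, 2180, 2290 and 2400 CPM in WT SPMs, a log2 fold change of 1.46 (SE 0.39, adjusted p = 0.00372), a call that was not kept under every scaling.

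Cathepsin B followed another order. Ctsb read 1430, 1300, 1400 and 1260 CPM in WT monocytes and 4680, 3860, 2460, 3730 and 6250 CPM in WT lung macrophages, and the WT SPM values given above overlapped both. WT lung macrophages exceeded WT monocytes by a log2 fold change of 1.64 (SE 0.34, adjusted p = 0.000159, edgeR) and WT SPMs by 1.12 (SE 0.33, adjusted p = 0.0048), and WT SPMs did not differ from WT monocytes beyond the spread between samples (0.52, SE 0.34, adjusted p = 0.242). The ratio of Ctss to Ctsb within a library, which no scaling of libraries can move, had medians of 4.59 in WT monocytes, 16.7 in WT SPMs and 1.98 in WT lung macrophages per kilobase. It ranged from 16.0 to 21.6 in WT SPMs and from 11.1 to 17.5 in ACKR2-/- SPMs, and stayed at or below 5.10 in every monocyte and lung library. On exons, 12.8% of the Ctsb sequence is shared with Fdft1, which reached at most 2012 counts in a library.

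Legumain was low in monocytes and high in lung macrophages. Lgmn read 39.6, 28.3, 41.3 and 34.2 CPM in WT monocytes, 20.8, 68.2, 65 and 79.7 CPM in WT SPMs and 499, 361, 686, 290 and 672 CPM in WT lung macrophages, and 304 to 590 CPM in ACKR2-/- lung macrophages. All 10 lung libraries lay above all 16 others, and the log2 fold change of WT lung macrophages over WT SPMs was 3.10 (SE 0.37, adjusted p = 9.36e-08, edgeR). Cathepsin F was rare in monocytes. Ctsf read 1.05, 0.49, 0.477 and 1.06 CPM in WT monocytes and 4.01, 5.93, 6.53 and 8.65 CPM in WT SPMs, with the lung values given above. Its log2 fold changes were 3.02 (SE 0.50, adjusted p = 2.24e-05) for WT SPMs and 4.83 (SE 0.52, adjusted p = 1.56e-08) for WT lung macrophages over WT monocytes, the latter 4.43 without the libraries labelled WT replicates 3 and 5.

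Cathepsin K, the collagen-degrading protease best known from osteoclasts, was detected in the lung libraries and close to absent elsewhere. Ctsk read 31, 17.2, 24, 16.5 and 5.21 CPM in lung libraries labelled WT and 25.3, 30.7, 17.7, 3.01 and 21.6 CPM in ACKR2-/- lung libraries. Its counts over the group were 2673 in WT lung macrophages, 2 in WT monocytes and 0 in WT SPMs, and 3227, 2 and 11 in the ACKR2-/- groups. WT lung macrophages were 802-fold above WT monocytes (95% interval 222 to 6630, for counting error only) and at least 278-fold above WT SPMs, taking a floor of 3 counts over the group. Atp6v0d2, an alternative d subunit of the V0 sector that osteoclasts also use, had the same profile. It read 37, 26.7, 40.2, 23.7 and 4.89 CPM in lung libraries labelled WT and 40, 51.5, 22.1, 3.99 and 20 CPM in ACKR2-/- lung libraries, and at most 0.617 CPM in any monocyte or SPM library. WT lung macrophages were 190-fold above WT monocytes (interval 109 to 368, 12 counts in monocytes) and 65.9-fold above WT SPMs (interval 41.6 to 111, 18 counts in SPMs).

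Both genes were lowest in the same lung libraries, WT replicate 5 and ACKR2-/- replicate 4. Ctsf (8.97 and 4.72 CPM) and Ctsl (119 and 95.2 CPM) were also lowest of their lung groups in these 2 libraries. These are the libraries with the least epithelial RNA, and fibroblast markers (5 genes) also summed to 63.5 and 45.6 CPM there against 140 to 710 CPM in the other lung libraries. The alveolar macrophage marker Siglecf read 0.404 and 0.234 CPM in them against 4.69 to 9.66 CPM in the rest, Krt79 1.37 and 0.502 CPM against 11.5 to 25.0 CPM, and Cidec 0.646 and 0.603 CPM against 9.73 to 17.3 CPM. Marco read 2.46 and 0.368 CPM there against 7.08 to 15.2 CPM, and Car4 16.2 and 15.3 CPM against 76.5 to 233 CPM. Fabp4, the sixth gene of the alveolar list, was highest in these 2 libraries, at 455 and 518 CPM against 27.2 to 392 CPM, so that the summed list did not show the difference (476 and 535 CPM against 150 to 504 CPM). Of the 4 osteoclast markers, Calcr was at 0 in every lung library and Oscar in all but 1, and the list summed to 1.31 to 25.3 CPM in the lung. The part of epithelial, fibroblast or alveolar macrophage RNA in the Ctsk, Atp6v0d2, Ctsf and Ctsl values was not tested. Lgmn and Ctsb did not follow them, with values of 672 and 6250 CPM in WT replicate 5 and 590 and 7190 CPM in ACKR2-/- replicate 4, among the highest of the lung. With the lowest WT lung library left out, Ctsk was 923-fold and Atp6v0d2 222-fold above WT monocytes.

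**Figure D3:**
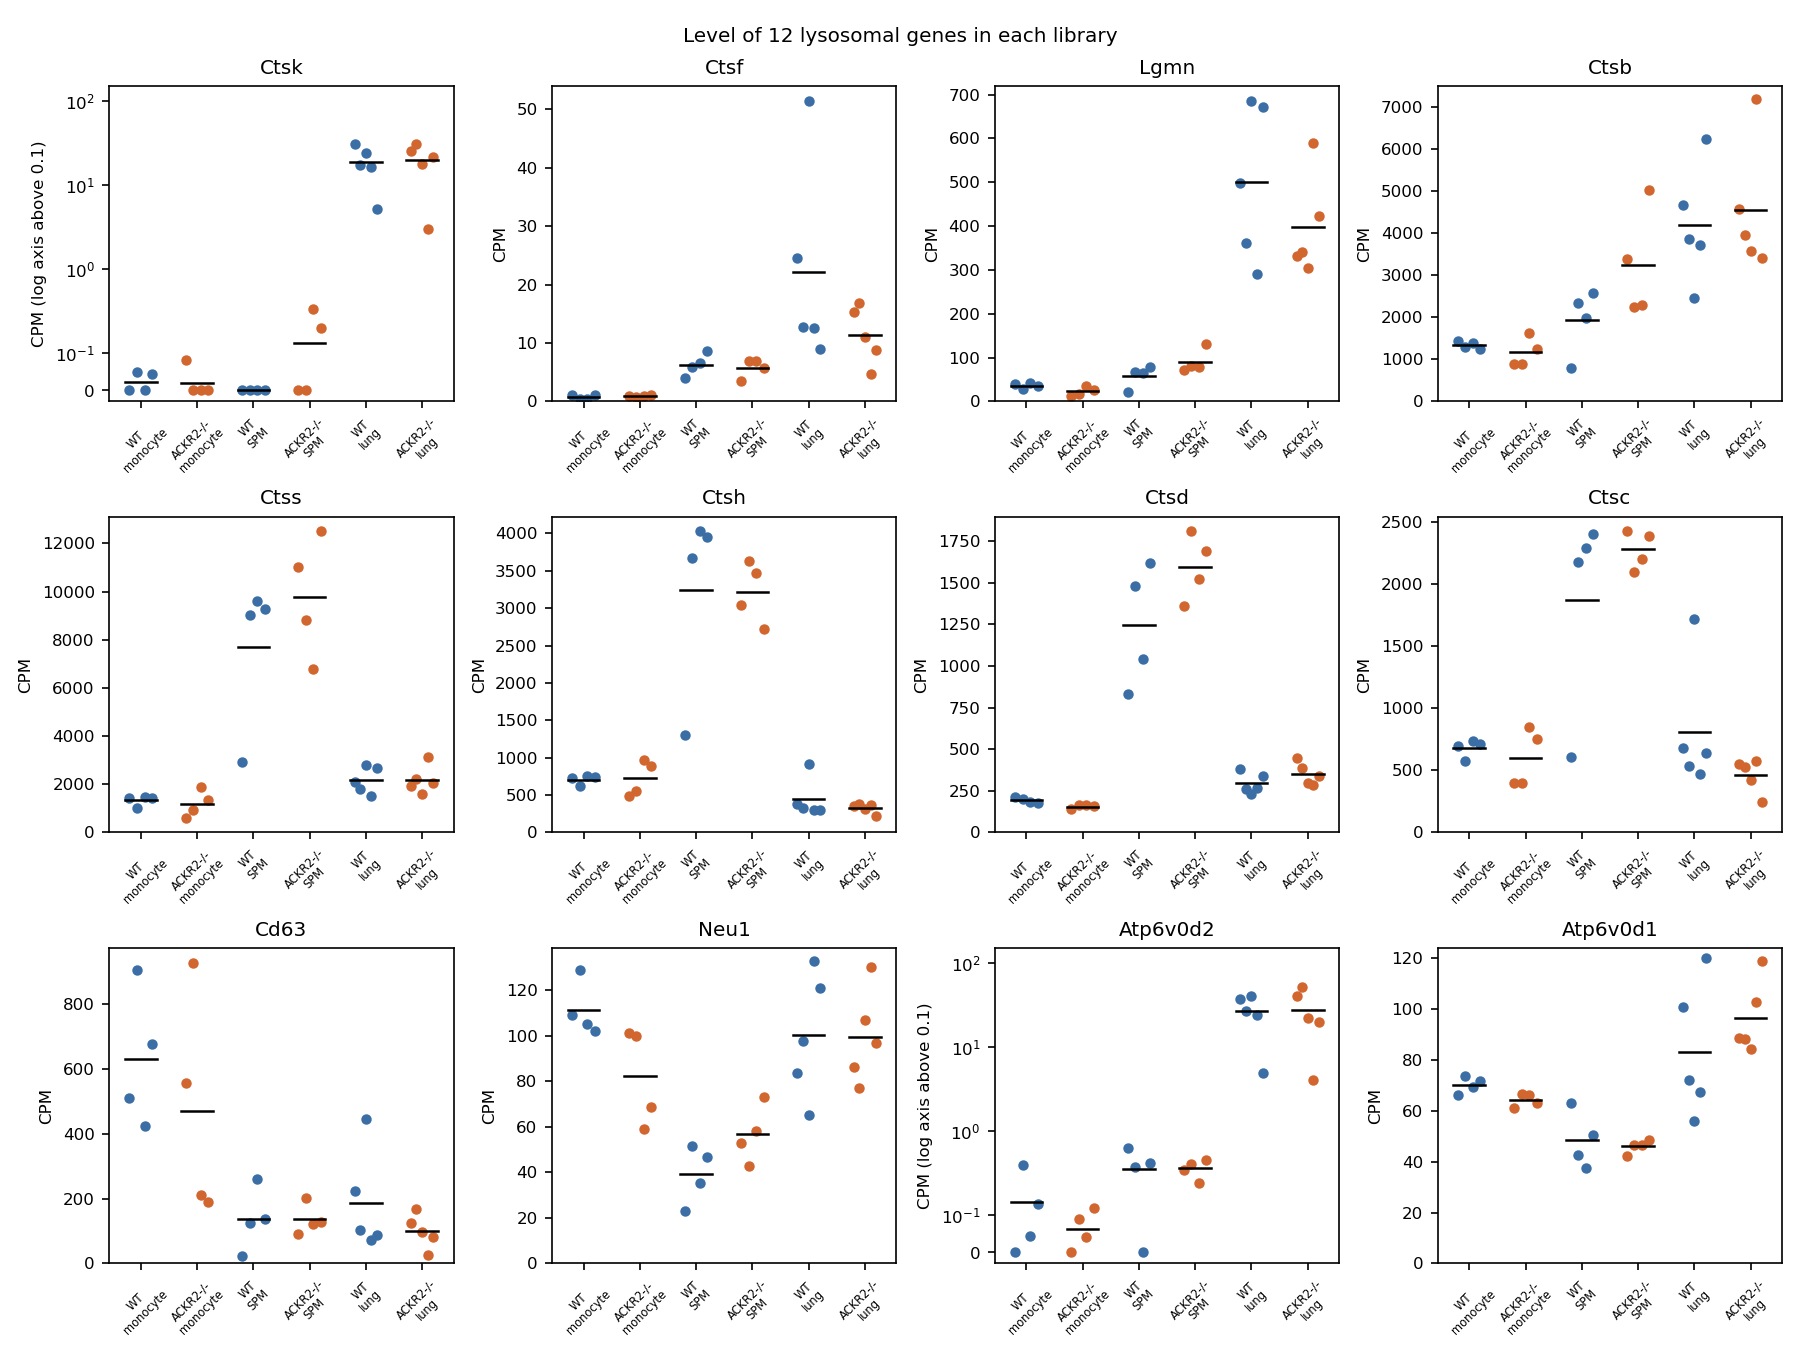
CPM of 12 lysosomal genes in every library, by cell type and genotype, with a line at the group mean; the axes of Ctsk and Atp6v0d2 are logarithmic and the others start at 0. Ctss, Ctsh, Ctsc and Ctsd peak in SPMs, Ctsb, Lgmn, Ctsf, Ctsk and Atp6v0d2 in lung macrophages and Cd63 in monocytes, while the group means of Neu1 are lowest in SPMs.

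Of the 3 other proteases, cathepsin D was highest in SPMs. Ctsd read 831, 1480, 1040 and 1620 CPM in WT SPMs, 1360, 1810, 1520 and 1690 CPM in ACKR2-/- SPMs and 378, 258, 229, 264 and 341 CPM in WT lung macrophages. Each SPM library lay above each of the 18 others, with log2 fold changes of 2.69 (SE 0.22, adjusted p = 4.47e-10, edgeR) over WT monocytes and, for WT lung macrophages against WT SPMs, of -2.08 (SE 0.20, adjusted p = 2.49e-09). Exons of Ctsd share 34.4% of their bases with Gm49369 on the same strand, a gene with 0 counts in every library, and how far reads were left out of Ctsd for that reason was not tested. Tpp1, a tripeptidyl peptidase, and Ctsa were called higher in WT lung macrophages than in WT monocytes, Ctsa by 0.89 (SE 0.26, adjusted p = 0.00398). Ctsa shares 17.4% of its exonic bases with neighbours that include Pltp, which reached 103853 counts in an SPM library and 184 in a monocyte library.

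Of the 6 glycosidases, 1 was called higher and 1 lower in WT SPMs than in WT monocytes (21.8% and 20.1% of all genes), and 2 higher and 3 lower in WT lung macrophages than in WT SPMs (39.1% and 23.2%). Neu1, which removes sialic acid, read 109, 129, 105 and 102 CPM in WT monocytes, 23.1, 51.4, 35.3 and 46.8 CPM in WT SPMs and 83.6, 97.8, 65.2, 133 and 121 CPM in WT lung macrophages. SPMs were lowest, with a log2 fold change of -1.51 (SE 0.26, adjusted p = 2.94e-05, edgeR) against monocytes in WT and -0.54 (SE 0.25, adjusted p = 0.0876) in ACKR2-/-, where the monocytes read 101, 100, 59.1 and 68.8 CPM. Glb1, the beta-galactosidase, read 31.1, 33.8, 27.9 and 29.9 CPM in WT monocytes and 19.3, 10.9, 25, 8.57 and 14.9 CPM in WT lung macrophages, a log2 fold change of -0.96 (SE 0.25, adjusted p = 0.00148). Gaa, the acid alpha-glucosidase that digests glycogen, was instead highest in the lung, at 36.7 to 51.3 CPM against 14.7 to 18.9 CPM in WT monocytes (log2 fold change 1.35, SE 0.27, adjusted p = 0.000138).

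The lipid group held genes of different orders. Npc2, which hands cholesterol to Npc1 inside the lysosome, read 880 to 1190 CPM in WT SPMs, 477 to 596 CPM in WT monocytes and 182 to 451 CPM in WT lung macrophages, and all 3 ranges were separate. Psap, the precursor of the activators of sphingolipid breakdown, read 1300, 1760, 510 and 1440 CPM in WT SPMs and 2740, 2220, 2480, 1920 and 3290 CPM in WT lung macrophages, a log2 fold change of 1.01 (SE 0.29, adjusted p = 0.00425, edgeR). Lipa was higher in WT lung macrophages than in WT monocytes by 0.53 (SE 0.23, adjusted p = 0.0435), and its 4 WT SPM libraries read 82.7, 58.9, 46 and 72 CPM. Npc1 did not follow Npc2, since it was called in opposite directions under different scalings for WT lung macrophages against WT SPMs. Of the 7 genes, 2 were called higher and 0 lower in WT SPMs than in WT monocytes, and 5 and 0 in ACKR2-/- cells, against the shares of all genes given above.

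Among the membrane proteins, Cd68 and Cd63 went opposite ways. Cd68, a heavily glycosylated protein of macrophage lysosomes, read 475, 412, 556 and 475 CPM in WT monocytes, 1050, 2020, 2430 and 2210 CPM in WT SPMs and 1030, 815, 876, 949 and 1380 CPM in WT lung macrophages, with log2 fold changes over monocytes of 2.01 (SE 0.34, adjusted p = 3.23e-05, edgeR) and 1.07 (SE 0.32, adjusted p = 0.00512). Cd63 read 24.3, 125, 260 and 138 CPM in WT SPMs and 222, 103, 447, 71.1 and 86.8 CPM in WT lung macrophages, below the WT monocyte values given above except for WT lung replicate 3. Its log2 fold changes against WT monocytes were -2.21 (SE 0.64, adjusted p = 0.00666) in SPMs and -1.76 (SE 0.59, adjusted p = 0.0107) in lung macrophages. A pseudogene, Cd63-ps, took 14.9% of the reads of both genes in WT monocytes, 12.7% in WT SPMs and 0% in lung macrophages, and the sum of both genes ranged from 493 to 1060 CPM in WT monocytes, 27.8 to 313 CPM in WT SPMs and 71.1 to 447 CPM in WT lung macrophages, so that the WT monocyte range stayed above both. Lamp1, a main protein of the lysosomal membrane, was not called in either WT contrast with monocytes (0.13, SE 0.27, adjusted p = 0.758, and -0.14, SE 0.26, adjusted p = 0.656).

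Some genes of the proton pump were low in SPMs. Of its 8 genes, 0 were called higher and 4 lower in WT SPMs than in WT monocytes (21.8% and 20.1% of all genes), but 2 higher and 2 lower in ACKR2-/- SPMs than in ACKR2-/- monocytes (20.8% and 19.5%). Atp6v1a and Tcirg1 were lower in both genotypes and under all 4 scalings. In WT lung macrophages against WT SPMs 4 were higher and 0 lower (39.1% and 23.2%), and in ACKR2-/- cells 4 and 1 (38.9% and 24.7%). In both genotypes the 4 include Atp6v0d2, which passed the filter through the lung alone. Atp6v1a read 113 to 126 CPM in WT monocytes and 89.2, 47.6, 40.7 and 49.7 CPM in WT SPMs (log2 fold change -1.04, SE 0.21, adjusted p = 0.000178, edgeR). Tcirg1, the a3 subunit of the V0 sector, fell by 0.94 (SE 0.27, adjusted p = 0.00519) on the log2 scale and read 87.6, 36.3, 33.3 and 45.2 CPM in WT SPMs, with replicate 1 again apart from the others. Atp6v1b2, the B subunit of the V1 sector, was called lower in both WT macrophage types than in WT monocytes. In SPMs that call was not kept under every scaling and was not made in ACKR2-/- cells. Atp6v1b2 read 349, 262, 295 and 311 CPM in WT monocytes, 168, 208, 162 and 201 CPM in WT SPMs and 140, 137, 122, 123 and 170 CPM in WT lung macrophages. WT lung macrophages lay below WT monocytes by a log2 fold change of -1.14 (SE 0.16, adjusted p = 1.18e-06, edgeR).

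The widely used d subunit, Atp6v0d1, stood in contrast to Atp6v0d2. Atp6v0d1 read 66.3, 73.8, 69.5 and 71.9 CPM in WT monocytes, 63.1, 42.8, 37.5 and 50.7 CPM in WT SPMs and 101, 72.1, 56, 67.5 and 120 CPM in WT lung macrophages. Lung macrophages and monocytes did not differ beyond their spread (0.24, SE 0.18, adjusted p = 0.259, edgeR), and lung macrophages exceeded SPMs by 0.78 (SE 0.19, adjusted p = 0.000901). The difference between SPMs and monocytes, -0.53 (SE 0.20, adjusted p = 0.0293), fell short of the call under 8 other settings. Per kilobase, Atp6v0d2 amounted to 0.0269 to 0.474 of Atp6v0d1 in WT lung libraries and to at most 0.00646 of it in any monocyte or SPM library. Atp6v0c, the ring subunit of the V0 sector, read 157 to 289 CPM in WT lung macrophages and 72.7 to 90.1 CPM in WT monocytes, but a pseudogene, Atp6v0c-ps2, took 23.7% of the reads of both in WT monocytes, 27.1% in WT SPMs and 1.03% in WT lung macrophages, so that its level in the first 2 is uncertain. Under TMM, the 10 further pump subunits fixed as a separate list did not share the direction of these 8 in WT cells. Of them, 4 were called higher and 0 lower in WT SPMs than in WT monocytes (21.8% and 20.1% of all genes). Other scalings were not examined for these subunits.

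A share of the summed CPM per kilobase of the 44 genes compares the groups without any scaling of libraries. Cysteine proteases made up 38.6% ± 1.77 (SD, n = 4) of that sum in WT monocytes, 61.6% ± 7.24 (n = 4) in WT SPMs and 45.3% ± 3.02 (n = 5) in WT lung macrophages. ACKR2-/- groups gave 40.3% ± 3.31, 64.5% ± 4.18 and 44% ± 2.30 in the same order. The proton pump made up 5.42% ± 0.269 in WT monocytes, 1.97% ± 0.367 in WT SPMs and 4.56% ± 0.440 in WT lung macrophages, and the SPM values of both genotypes (1.55 to 2.51%) lay below every other library (3.91 to 7.09%). Lipid hydrolases and their partners likewise took 21.3% ± 0.666, 8.24% ± 3.26 and 16.8% ± 0.564, and glycosidases 5.79% ± 0.512, 3.33% ± 0.827 and 3.15% ± 0.475. As shares of this sum, cysteine proteases were thus higher and the 8 pump genes and the lipid group lower in every SPM library than in the other cells. These are shares and not levels, and a rise of an abundant gene lowers all other shares. Ctss alone took 38.9% in WT and 42% in ACKR2-/- SPMs, against 19% and 18.7% in monocytes and 20.6% and 20.8% in lung macrophages. By level, 2 genes of the lipid group were called higher and 0 lower in WT SPMs than in WT monocytes (21.8% and 20.1% of all genes).

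**Figure D4:**
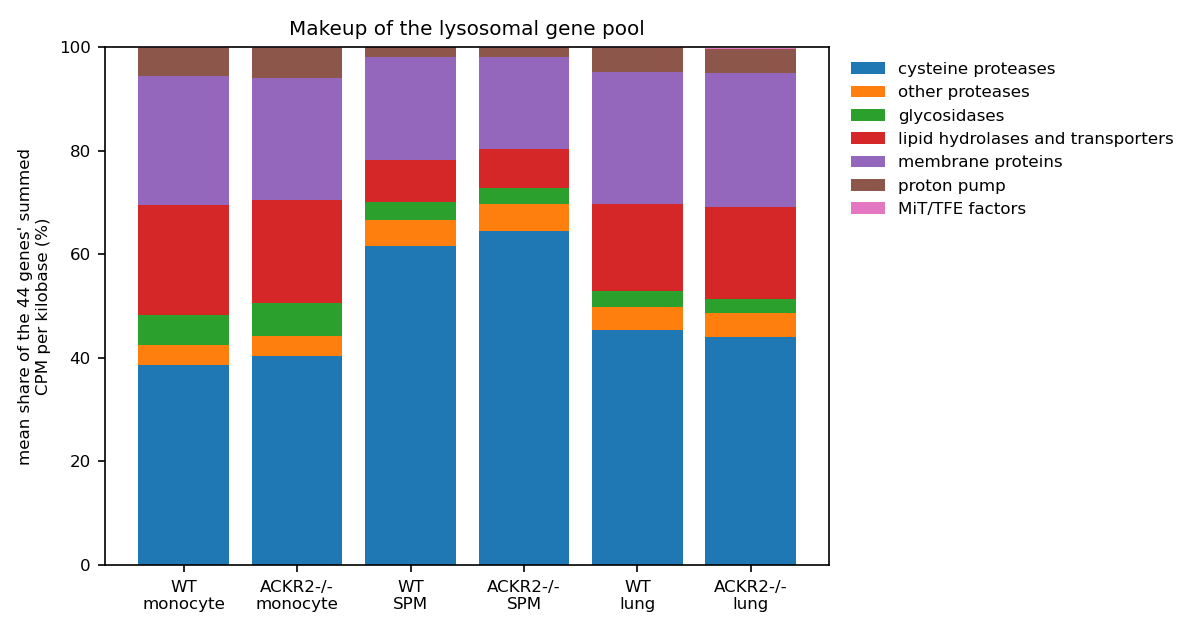
Mean share (%) of each role in the summed CPM per kilobase of the 44 genes, stacked for the 6 groups. Cysteine proteases take 61.6 and 64.5% in WT and ACKR2-/- SPMs, against 38.6 to 45.3% in the other 4 groups, and the proton pump 1.97 and 1.82% against 4.56 to 5.83%.

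The 3 transcription factors followed different orders. Tfeb read 47.3, 43.8, 45.3 and 39.8 CPM in WT monocytes, 15.2, 15.6, 7.62 and 19.9 CPM in WT SPMs and 65.8, 75.6, 44.6, 97.7 and 79 CPM in WT lung macrophages. It was lowest in SPMs, at a log2 fold change of -1.58 (SE 0.26, adjusted p = 1.89e-05, edgeR) against monocytes, and lung macrophages exceeded SPMs by 2.30 (SE 0.26, adjusted p = 3.1e-08) and monocytes by 0.72 (SE 0.24, adjusted p = 0.0111). Mitf read 3.45, 2.84, 3.95 and 3.37 CPM in WT monocytes, 21.9, 9.54, 4.51 and 9.54 CPM in WT SPMs and 0.973, 1.59, 3.47, 1.43 and 2.18 CPM in WT lung macrophages, and 6.05 to 10 CPM in ACKR2-/- SPMs. It was highest in SPMs, at 1.75 (SE 0.41, adjusted p = 0.00122) over monocytes, and lung macrophages lay below SPMs by a log2 fold change of -2.57 (SE 0.39, adjusted p = 4.02e-06). Under total counts the first of these was 0.72 and no longer called, and without SPM WT replicate 1, the highest library, it was 1.21. Tfe3 read 32.7, 26.6, 35.7 and 27.9 CPM in WT monocytes, 51.3, 27.2, 25.8 and 27.7 CPM in WT SPMs and 43.3, 54, 45.1, 48.6 and 55.3 CPM in WT lung macrophages. Lung macrophages exceeded monocytes by 0.68 (SE 0.21, adjusted p = 0.00557), and SPMs and monocytes did not differ beyond their spread (0.11, SE 0.22, adjusted p = 0.755).

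The ratio of Mitf to Tfeb per kilobase put the contrast free of scaling. It ranged from 0.0594 to 0.0798 in WT monocytes, from 0.439 to 1.32 in WT SPMs and from 0.0134 to 0.0711 in WT lung macrophages. ACKR2-/- ranges were 0.0406 to 0.0949, 0.322 to 0.426 and 0.00745 to 0.0290, so that every SPM library lay above every other library. The ACKR2-/- SPM range lay below the WT SPM range, a difference that was seen after the values were known and was not tested. Of the 10 genes with CACGTG in their promoters, 3 were called higher and 1 lower in WT SPMs than in WT monocytes (21.8% and 20.1% of all genes). Among the 27 genes whose promoters were searched without a match, the counts were 11 and 5. For WT lung macrophages against WT monocytes they were 7 and 2 of the 10, and 10 and 3 of the 27 (39.5% and 24.4% of all genes). Against WT SPMs they were 4 and 2, and 9 and 10 (39.1% and 23.2%). A link between the motif and these calls was not tested.

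**Figure D5:**
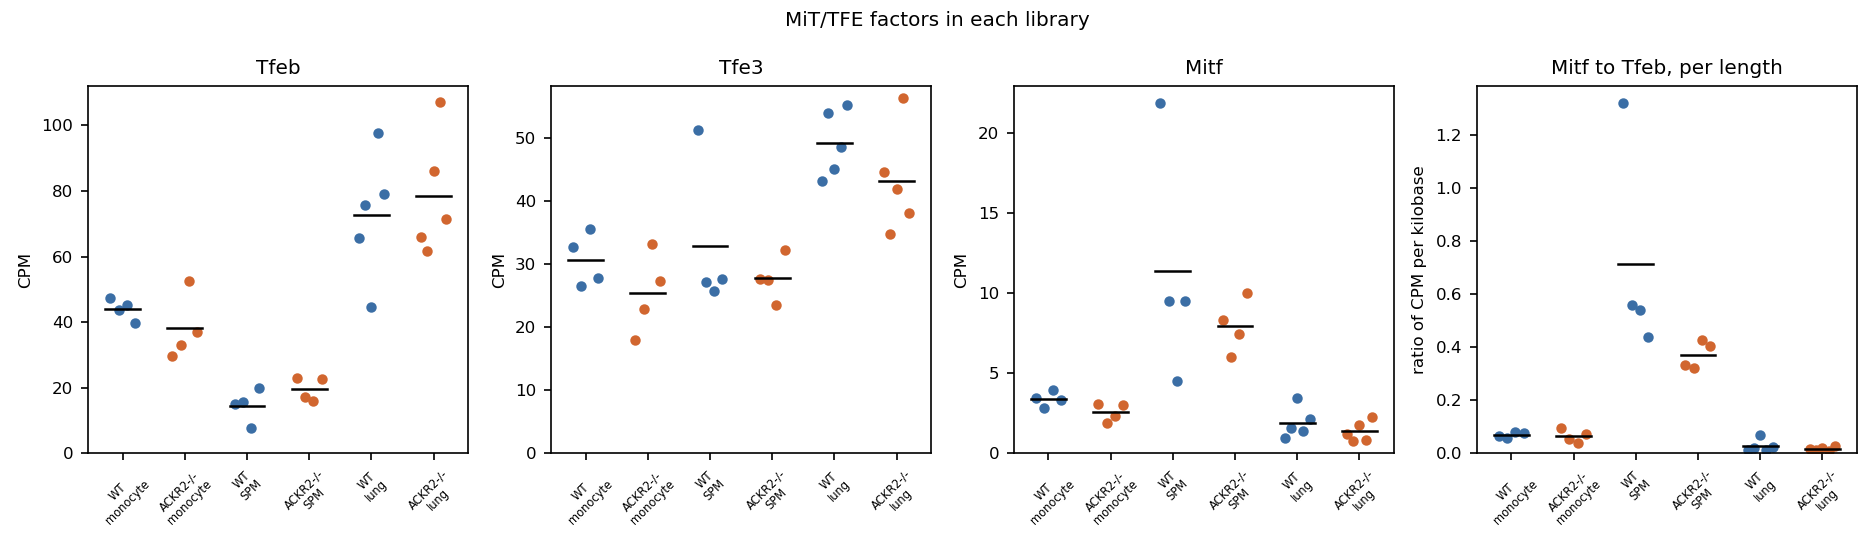
CPM of Tfeb, Tfe3 and Mitf in every library and the ratio of Mitf to Tfeb per kilobase (linear axes), by cell type and genotype, with a line at the group mean. Tfeb is lowest and Mitf highest in SPMs, and the ratio is 0.322 to 1.32 in SPMs and at most 0.0949 elsewhere.

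The rest of the pathway was read from a fixed list of 79 other lysosomal genes, of which 75 were tested in each genotype comparison and 76 between cell types. In monocytes 1 of 75 was called higher and 1 lower in ACKR2-/- cells, against 1.27% of all genes called in either direction. Ctsw, a cathepsin of T and NK cells, rose from 0.366 ± 0.232 to 10.9 ± 3.51 CPM (SD, n = 4 each; log2 fold change 4.89, SE 0.39, adjusted p = 4.69e-05, edgeR), and T cell markers (6 genes, none at 0) summed to 44.3 to 74.1 CPM in ACKR2-/- and 2.13 to 3.01 CPM in WT monocytes, whose part was not tested. Arsb, the arylsulfatase of dermatan sulfate breakdown, fell from 25.1 ± 5.11 to 14.3 ± 0.918 CPM (log2 fold change -0.79, SE 0.15, adjusted p = 0.0287). In SPMs 1 of 75 was called against 0.0462% of all genes. This was Ctse, an endosomal aspartic protease, which fell from 56.5 ± 15.9 to 3.65 ± 0.668 CPM (log2 fold change -4.00, SE 0.26, adjusted p = 5.31e-05). In lung macrophages 0 of 75 were called by edgeR, as were 0% of all genes.

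Between WT cell types, 26 of the 76 were called higher and 17 lower in SPMs than in monocytes (21.8% and 20.1% of all genes), 19 and 23 in lung macrophages than in monocytes (39.5% and 24.4%), and 21 and 24 in lung macrophages than in SPMs (39.1% and 23.2%). Ctse was higher in WT SPMs than in WT monocytes by 2.39 (SE 0.28, adjusted p = 1.82e-07, edgeR) and lower in WT lung macrophages than in WT SPMs, at -3.07 (SE 0.27, adjusted p = 4.76e-10). Cst3, the secreted inhibitor of cysteine proteases cystatin C, read 1700 ± 129 CPM in WT monocytes, 8960 ± 2020 CPM in WT SPMs and 3750 ± 833 CPM in WT lung macrophages (SD), thus in the order of the cathepsins S and D. Cst7, cystatin F, which acts inside the endolysosome, went the other way, at 165 ± 44.8, 14.0 ± 7.07 and 6.12 ± 2.26 CPM. Tfec, the fourth MiT/TFE factor, read 46.3 ± 2.82 CPM in WT monocytes against 0.554 ± 0.463 CPM in WT SPMs and 2.32 ± 1.30 CPM in WT lung macrophages, with log2 fold changes of -6.38 (SE 0.64, adjusted p = 1.18e-08) and -4.32 (SE 0.49, adjusted p = 3.7e-08). Stfa1, a cytosolic cystatin, had 237 counts over WT monocytes, 0 over WT SPMs and 2 over WT lung macrophages. Lamtor2, a scaffold of nutrient sensing on the lysosome, read 214 ± 32.9 CPM in WT monocytes, 691 ± 175 CPM in WT SPMs and 82.8 ± 21.8 CPM in WT lung macrophages.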

How the data were processed

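RNA of sorted bone marrow monocytes, SPMs and MHCII negative lung macrophages was amplified with a SMARTer low-input kit after poly-A selection and sequenced by a commercial provider. The authors deposited raw counts per gene, in 1 table per cell type. The submitters' processing notes name HISAT2 2.0.5, featureCounts 1.5.0-p3, DESeq2 and mm10 without their order. The lung table ends in 5 summary lines of another counter, which were left out. Over all lung libraries together these lines held 56.3% of all counts. Library totals were 15450670 to 19218213 counts in monocytes, 12781144 to 35400034 in SPMs and 19950019 to 29770252 in lung macrophages. Counting intervals cover counting error only. The smallest chi-square per degree of freedom between replicates was 10.6, so that no 2 libraries were counted as 1.

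Genotypes were compared within each table, and cell types and interactions in 1 fit of 26 libraries, with edgeR 4.0.16 (R 4.3.3; TMM factors, filterByExpr at 10 counts and 15 in total, quasi-likelihood test, Benjamini-Hochberg adjustment over all tested genes). Calls required an adjusted p under 0.05 and, except for interactions, a log2 fold change over 0.5 in size. Scripts were tested on simulated data.

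The members and lists were chosen with earlier results of these data known. Every sample's value is given for the 3 genes of smallest p in each genotype comparison, the 3 largest called changes in each direction of each WT cell type contrast, Tfeb, Tfe3, Mitf, Atp6v0d1 and Atp6v0d2, and for a few examples per role. Alternatives were DESeq2 1.42.0, other scalings and filters (1 CPM, none), the replicate number as a block, libraries left out in turn or in pairs and, chosen after the data were seen, lung results without the 2 libraries of least epithelial RNA.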

Additional observations from a re-analysis of the deposited data

Results flagged for a closer look

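Over 131 groups of libraries, 21 genes with values given per library were examined for a library far from the others of its group by Dixon's criterion, which chance meets in about 1 in 20 groups, and 10 values met it, 4 on the low side and 6 on the high side. SPM WT replicate 1 accounted for 4 of them, with Ctsc at 609 CPM (2180 to 2400 CPM in the other WT SPMs), Ctss at 2910 CPM (9040 to 9590), Ctsh at 1300 CPM (3670 to 4030) and Tfe3 at 51.3 CPM (25.8 to 27.7). The lung library labelled WT replicate 3 was high for Ctsc at 1720 CPM (471 to 677 CPM in the others) and for Ctsh at 913 CPM (301 to 380). Lipa stood at 106 CPM in the lung library labelled WT replicate 5 (72.0 to 80.3). Ctss was low in WT monocyte replicate 2 at 1010 CPM (1430 to 1470), and Lgmn high in ACKR2-/- SPM replicate 4 at 130 CPM (72.9 to 81.8). Ctsk in ACKR2-/- monocyte replicate 1, at 0.0807 CPM against 0 in the others, rested on 2 counts.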

How the results depend on the processing

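For single genes, 677 alternative values kept the direction and side of the threshold, 15 were no longer called, 3 became called and 2 changed sign. Of the counts of called genes, 345 stayed within 1.5 times and 12 moved beyond. The 2 changes of sign were Tfe3 in WT SPMs against WT monocytes, 0.11 as reported, -0.97 under total counts, and -0.20 to 0.20 with 1 library left out, the former without WT SPM replicate 1. Total counts moved WT SPMs against WT monocytes to 6 higher and 24 lower, ACKR2-/- SPMs against monocytes to 9 and 17, WT lung macrophages against SPMs to 34 and 4, and ACKR2-/- lung macrophages against SPMs to 29 and 7. DESeq2 and RLE factors each gave 6 lower genes in ACKR2-/- lung macrophages against monocytes, where 10 were reported. The cause of these shifts was not tested beyond the scaling itself. Leaving out 1 library or a pair gave 0 to 1 called genes between genotypes in monocytes, and 0 in SPMs and in lung macrophages. The 1 came without ACKR2-/- replicate 3, where 413 of all 13525 genes were called. The same runs gave 14 to 20 higher and 6 to 8 lower genes in WT SPMs against monocytes (24 to 27 and 3 to 5 in ACKR2-/-), 17 to 21 and 5 to 9 in WT lung macrophages against monocytes (22 to 24 and 6 to 10), and 14 to 15 and 12 to 14 in WT lung macrophages against SPMs (11 to 14 and 14 to 16). The 6 lower genes in ACKR2-/- lung macrophages came without ACKR2-/- monocyte replicate 3. Without the lung libraries of least epithelial RNA, an alternative chosen after the data were seen, 18 genes were higher and 5 lower in WT lung macrophages against monocytes. Replicate numbers did not pair the samples in monocytes and SPMs (correlations of deviations -0.08 to 0.18). In lung macrophages the correlation was 0.60 for replicate 1, 0.24 for replicate 5 and -0.06 to 0.06 for the others. With the replicate block, 0 genes were called between genotypes in each cell type, and the counts were 16 higher and 7 lower, 18 and 7, and 15 and 13 in the 3 WT contrasts. The block brought Mitf in WT lung macrophages against monocytes to -0.95 and past the threshold. Ctsk and Atp6v0d2 in monocytes and SPMs lay at or near the limit of detection, where depth sets only bounds.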
